A study of Mus musculus with 2 samples.

Results

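The 9 genes Maf, Sox13, Sox4, Rora, Blk, Etv5, Zbtb16, Batf and Ahr encode factors named in the development of γδ T cells that make interleukin 17 (IL-17). They were taken by symbol from the 31053 genes of the files, and all 9 symbols were found. They were followed in immature γδ T cells of mouse fetal thymus: wild-type C57BL/6 lobes of embryonic day 15, untreated and cultured for 2 days. After staining with TMRE, a dye drawn into mitochondria by their membrane potential, CD24+ γδ T cells were sorted into a bright fraction (TMREhi) and a dim fraction (TMRElo). CD24 marks immature thymocytes. Each fraction gave 1 single-cell library from the 10x Chromium 5′ kit, so no test between fractions was possible, and every interval given is a 95% interval that covers counting error only. How many embryos were pooled is not given in the sources used here.

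γδ T cells acquire the capacity to make IL-17 or interferon-γ (IFN-γ) while still in the thymus, and waves of cells with different γ chain V segments leave the fetal thymus with different fates. Cells carrying Vγ6 are committed to IL-17, cells carrying Vγ4 contain IL-17 and IFN-γ producers, and cells carrying Vγ5 seed the epidermis and are not IL-17 producers. Maf is a transcription factor required for IL-17 production by γδ cells, Sox13 and Sox4 are high-mobility-group factors best known for the Vγ4 IL-17 branch, and Rora encodes a nuclear receptor of helper cells that make IL-17. Blk is a Src-family kinase needed for normal numbers of IL-17-producing γδ cells. Etv5 is an ETS factor linked to the Vγ4 branch, Zbtb16 encodes PLZF, the factor of innate-like T cells, Batf is an AP-1 family factor of IL-17-producing helper cells, and Ahr is a ligand-activated factor that sustains IL-17 and IL-22 producing cells.

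Levels are UMIs (unique molecular identifiers, counts of captured RNA molecules) per 1000000 UMIs of the group of barcodes named, written CPM. Retained barcodes, with at least 500 genes and at most 10% mitochondrial UMIs, numbered 317 in TMREhi (2905666 UMIs, median 7465) and 34 in TMRElo (105080 UMIs, median 1679). The 5 deepest held 44.0% of the retained TMRElo UMIs. Barcodes with at least 500 genes were also divided by the share of UMIs from ribosomal protein genes: below 15% (low-ribosomal, 733 TMREhi and 117 TMRElo barcodes) and 15% or more (high-ribosomal, 292 and 16). Each barcode was assigned to the γ V segment with most UMIs, with the near-identical Trgv2, Tcrg-V1 and Tcrg-V3, among which reads may be shared, summed as the Vγ1 family. In the low-ribosomal class 359 TMREhi and 80 TMRElo barcodes were led by a γ V segment, with medians of 1750 and 1037.5 UMIs and medians of 17.9% and 14.1% mitochondrial UMIs. The libraries shared 0 barcode sequences.

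Among the low-ribosomal barcodes led by a γ V segment, 54 of 359 were led by Tcrg-V6 in TMREhi (15.0%, exact binomial interval 11.5–19.2). In TMRElo 0 of 80 were, with an upper limit of 4.51%. Tcrg-V4 led 64 in TMREhi and 20 in TMRElo, the Vγ1 family 206 and 56, and Tcrg-V5 30 and 1. Markers of γδ T cells summed to 4900.1 CPM in TMREhi and 3750.1 in TMRElo, with 10 and 9 of 10 markers detected. In both libraries Cd79a and Ms4a1 of B cells, Krt5, Krt8, Foxn1 and Psmb11 of thymic epithelium, Cdh5 of endothelium, Il1rl1 of innate lymphoid cells and all 4 globin genes of erythroid cells were at 0. The lists as a whole summed to 22.8 and 0 CPM for B cells, 30.0 and 21.7 for epithelium, 136 and 195 for endothelium (1 of 2 markers detected in each library), 55.7 and 21.7 for natural killer cells and 1.43 and 0 for mesenchyme. αβ lineage markers summed to 344 and 271 CPM and innate lymphoid markers, Gata3 among them, to 502 and 618. Trdv4 of the γδ list and Rag2 and Ptcra of the αβ list were at 0 in TMRElo, and myeloid markers summed to 82.8 in TMREhi and 0 in TMRElo. The part of depth, mitochondrial share and these markers in the differences below was not tested.

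All 9 genes are protein-coding. On GRCm38 (GENCODE vM21) Maf (ENSMUSG00000055435) lies at chr8:115682942-115707794 on the minus strand, Sox13 (ENSMUSG00000070643) at chr1:133382303-133424377 minus and Sox4 (ENSMUSG00000076431) at chr13:28948919-28953713 minus. Rora (ENSMUSG00000032238) lies at chr9:68653786-69388246 plus, Blk (ENSMUSG00000014453) at chr14:63372836-63417037 minus and Etv5 (ENSMUSG00000013089) at chr16:22381309-22439719 minus. Zbtb16 (ENSMUSG00000066687) lies at chr9:48654297-48836222 minus, Batf (ENSMUSG00000034266) at chr12:85686669-85709087 plus and Ahr (ENSMUSG00000019256) at chr12:35497974-35535038 minus. Maf, Sox4, Rora and Ahr each overlap 1 gene on the other strand. Whether counting used strand is not given in the sources used here, and without strand their reads could not be told apart from those of that neighbour.

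Etv5 was detected with Sox13 and with Sox4 in more barcodes than their shares gave, as described below, and the bases upstream of their annotated starts are shown for that reason. The sequences are from RefSeq (GRCm38.p6), which held a promoter entry for 5 of the 9 genes. They run 5′ to 3′ on the gene's own strand (minus for all of them), at chr1:133424378-133424462 for Sox13, chr13:28953714-28953949 for Sox4 and chr16:22439720-22439820 for Etv5. Capitals mark E-boxes, the CANNTG motif, which reads the same on both strands.
Sox13: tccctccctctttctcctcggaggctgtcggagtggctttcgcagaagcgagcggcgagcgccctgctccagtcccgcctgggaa
Sox4: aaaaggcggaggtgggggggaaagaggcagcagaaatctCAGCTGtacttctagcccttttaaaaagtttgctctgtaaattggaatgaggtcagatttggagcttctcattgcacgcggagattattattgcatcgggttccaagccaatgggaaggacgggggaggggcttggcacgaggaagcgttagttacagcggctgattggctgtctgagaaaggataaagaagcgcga
Etv5: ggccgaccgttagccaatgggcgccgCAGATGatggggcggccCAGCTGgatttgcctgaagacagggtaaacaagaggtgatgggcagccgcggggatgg
The Sox4 stretch of 236 bases held 1 E-box, the Etv5 stretch of 101 bases held 2, and the Sox13 stretch of 85 bases held 0. Among 32851 RefSeq promoter windows cut to the same lengths, 64.3%, 36.5% and 31.8% held at least 1 E-box. These windows were cut from their 5′ end and so stopped short of their own RefSeq starts. The core of SOX factor sites, ACAAT or its reverse complement ATTGT, was in 0 of the 3 stretches, and in 26.8%, 13.2% and 11.0% of all windows of those lengths. A match in these letters is a description and not a site of binding.

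Maf, Sox13, Blk and Etv5 were higher in TMREhi than in TMRElo among low-ribosomal barcodes led by a γ V segment, while Ahr was lower. Of the 9 genes 5 were at least 2-fold higher in TMREhi (these 4 and Zbtb16, whose difference did not exceed counting error) and 0 at least 2-fold lower. Over the 8425 genes compared, whose mean reached 10 CPM, 13.6% were at least 2-fold higher and 15.2% at least 2-fold lower. The median log2 ratio of the 9 genes was 1.49 with 1 CPM added to every level, against -0.08 over all genes above that mean. It was 1.53 with nothing added and Blk at its lower bound, as are the list medians at the bound given further on, and Zbtb16 was the middle gene both times.

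**Figure D1:**
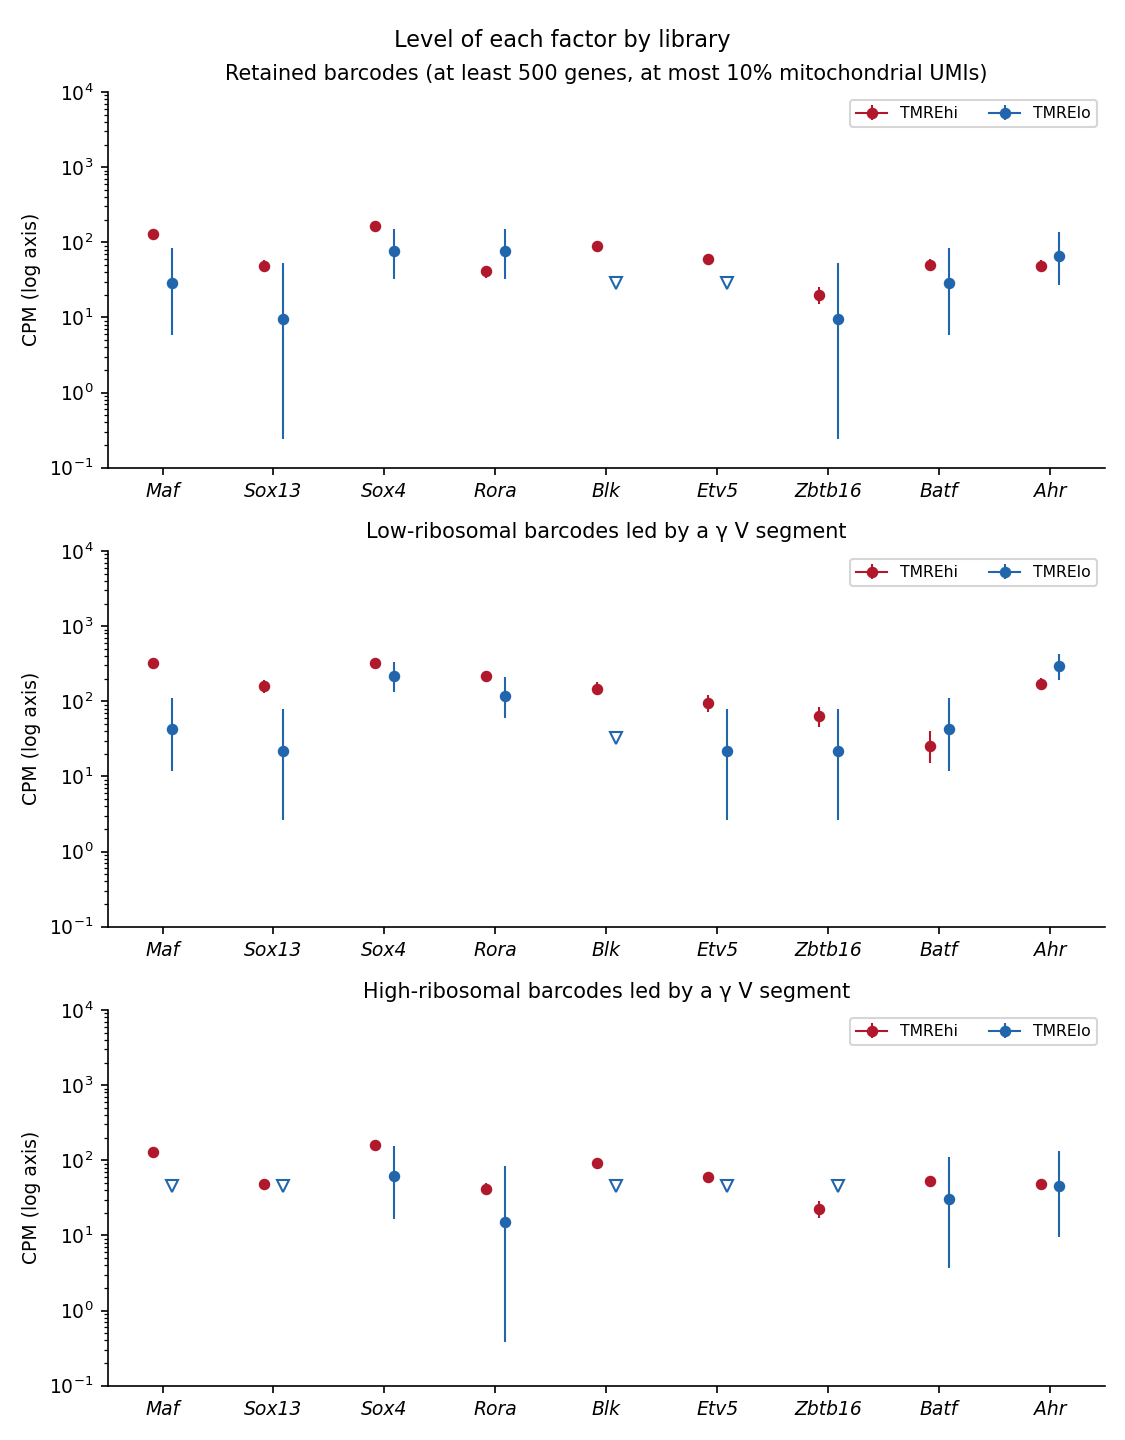
Level of each gene in CPM (log axis) in TMREhi (red) and TMRElo (blue), in retained barcodes and in low- and high-ribosomal barcodes led by a γ V segment. Points are sums over barcodes with exact Poisson 95% intervals, and open triangles mark 0 UMIs, drawn at the level of 3 counts. In the low-ribosomal panel Maf stands at 318 against 43.4 and Ahr at 170 against 293.

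Maf, required for IL-17 commitment, had 223 UMIs in TMREhi and 4 in TMRElo, or 318 (exact Poisson interval 278–363) against 43.4 (11.8–111) CPM. The ratio was 7.34 (exact binomial interval 2.83–27.2). Sox13 had 111 UMIs in TMREhi and 2 in TMRElo, 158 against 21.7 CPM, a ratio of 7.31 (1.98–61.1). The intervals of the levels did not overlap between the fractions for either gene, but the TMRElo values rested on 4 and 2 molecules. Blk had 103 UMIs in TMREhi (147 CPM, 120–178) and 0 in TMRElo. Against a floor of 3 counts per library, a convention and not a confidence limit, Blk was at least 4.52-fold higher in TMREhi, and the lower 95% limit of its ratio was 3.61. Etv5 had 66 and 2 UMIs, 94.2 against 21.7 CPM, a ratio of 4.34 (1.16–36.6). Zbtb16 had 44 and 2 UMIs, 62.8 against 21.7 CPM, and its ratio of 2.90 had an interval (0.756–24.7) that included 1.

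Sox4 and Rora were detected in both fractions and differed less. Sox4 had 229 UMIs in TMREhi and 20 in TMRElo, 327 (286–372) against 217 (132–335) CPM, a ratio of 1.51 (0.954–2.51). Rora had 151 and 11 UMIs, 215 against 119 CPM, a ratio of 1.81 (0.982–3.70). Neither difference exceeded counting error. Ahr went the other way, with 119 UMIs in TMREhi and 27 in TMRElo, 170 (141–203) against 293 (193–426) CPM, 1.72-fold higher in TMRElo (1.09–2.63). Batf had 18 and 4 UMIs, 25.7 against 43.4 CPM, and could not be told apart between the fractions (ratio 0.592, 0.195–2.41).

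In retained barcodes 6 of 9 genes were at least 2-fold higher in TMREhi and 0 at least 2-fold lower, against 8.88% and 30.7% of all 7701 genes compared. The median share of ribosomal protein UMIs was 31.3% in retained TMREhi and 11.6% in retained TMRElo barcodes. The retained ratios and shares of genes thus mix ribosomal class with fraction, and the part of class was not tested. Maf had 379 UMIs in TMREhi and 3 in TMRElo, 130 against 28.5 CPM, a ratio of 4.57 (1.55–22.3). Sox4 had 474 and 8 UMIs, 163 against 76.1 CPM, a ratio of 2.14 (1.08–4.99). Blk, with 258 UMIs against 0, was at least 3.11-fold higher, and Etv5, with 172 against 0, at least 2.07-fold higher. The remaining genes called rested on 1 TMRElo molecule each: Sox13 had 141 UMIs against 1 (ratio 5.10, 0.900–203) and Zbtb16 had 57 against 1 (2.06, 0.355–82.8). Rora (41.0 against 76.1 CPM, ratio 0.538, 0.264–1.27), Ahr (48.9 against 66.6, ratio 0.734, 0.347–1.86) and Batf (50.6 against 28.5, ratio 1.77, 0.595–8.69) did not differ beyond counting error. With at least 1000 genes and at most 5% mitochondrial UMIs, 2 of 7 genes with a ratio were called (Maf and Sox4), Blk was at least 1.80-fold and Etv5 at least 1.18-fold higher, and the ratio of Rora was 1.20. Without the 5 deepest barcodes of each library 3 genes were called (Maf, Sox13 and Sox4), and without barcodes called doublets 3 (Maf, Sox13 and Blk). In high-ribosomal barcodes led by a γ V segment, 257 in TMREhi and 11 in TMRElo, 4 of 8 genes with a ratio were at least 2-fold higher (Maf, Sox4, Rora and Blk), against 8.48% of 6957 genes, and 0 were at least 2-fold lower, against 23.4%. There 70.4% of the TMRElo UMIs came from 5 barcodes, and Maf, Sox13, Blk, Etv5 and Zbtb16 were all at 0 UMIs in TMRElo. The Rora call in that set rested on 112 and 1 UMIs, and its ratio of 2.73 had an interval (0.480–109) that included 1. The Sox4 call rested on 428 and 4 UMIs (2.61, 1.01–9.61).

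The differences in Maf, Sox13 and Blk were also present where the leading γ V segment was the same in both fractions. In low-ribosomal barcodes led by the Vγ1 family, Maf had 105 UMIs in 206 TMREhi barcodes and 3 in 56 TMRElo barcodes, 238 against 45.5 CPM, a ratio of 5.22 (1.74–25.7). Sox13 had 61 and 1 UMIs there, 138 against 15.2 CPM, a ratio of 9.10 (1.57–365), and Blk had 53 and 0, at least 2.63-fold higher in TMREhi. In this set 6 of 9 genes were at least 2-fold higher (13.9% of 7810 genes) and 0 at least 2-fold lower (17.2%). Among those called, Etv5 (3.13, 0.815–26.7), Zbtb16 (2.31, 0.588–19.9) and Batf (2.09, 0.318–88.3) had intervals that included 1. In Tcrg-V4-led barcodes Maf had 40 UMIs in 64 TMREhi barcodes and 1 in 20 TMRElo barcodes, 332 against 47.4 CPM, a ratio of 7.01 (1.19–284). Sox13 had 28 UMIs against 1, a ratio of 4.91 (0.811–201), and Blk 23 against 0, at least 1.34-fold higher in TMREhi. Of 7 genes with a ratio 2 were at least 2-fold higher (11.2% of 4282 genes) and 1 at least 2-fold lower (21.3%). That 1 was Ahr, with 10 UMIs in TMREhi and 7 in TMRElo, 83.1 against 332 CPM, 3.99-fold higher in TMRElo (1.29–11.6). In Vγ1-family-led barcodes Ahr stood at 183 against 288 CPM, a ratio of 0.636 whose interval (0.382–1.11) included 1.

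Within TMREhi the 9 genes divided by leading γ V segment. In the low-ribosomal class Maf, Rora and Zbtb16 were at least 2-fold higher in the 54 Tcrg-V6-led than in the 64 Tcrg-V4-led barcodes, 3 of 8 genes with a ratio against 13.2% of 6331 genes. Sox4 and Etv5 were at least 2-fold lower in Tcrg-V6-led barcodes, 2 of 8 against 18.0% of all genes. In the high-ribosomal class, with 39 and 9 barcodes, Maf, Rora, Blk and Ahr were at least 2-fold higher in Tcrg-V6-led barcodes (4 of 9 against 21.7% of 5713 genes), and Sox13, Sox4, Etv5 and Batf at least 2-fold lower (4 of 9 against 14.4%). Median depths were 1338.5 UMIs in Tcrg-V6-led and 1638.5 in Tcrg-V4-led low-ribosomal barcodes, and 4856 and 9948 in the high-ribosomal class. There 5 of the 9 Tcrg-V4-led barcodes held 75.0% of the UMIs.

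**Figure D2:**
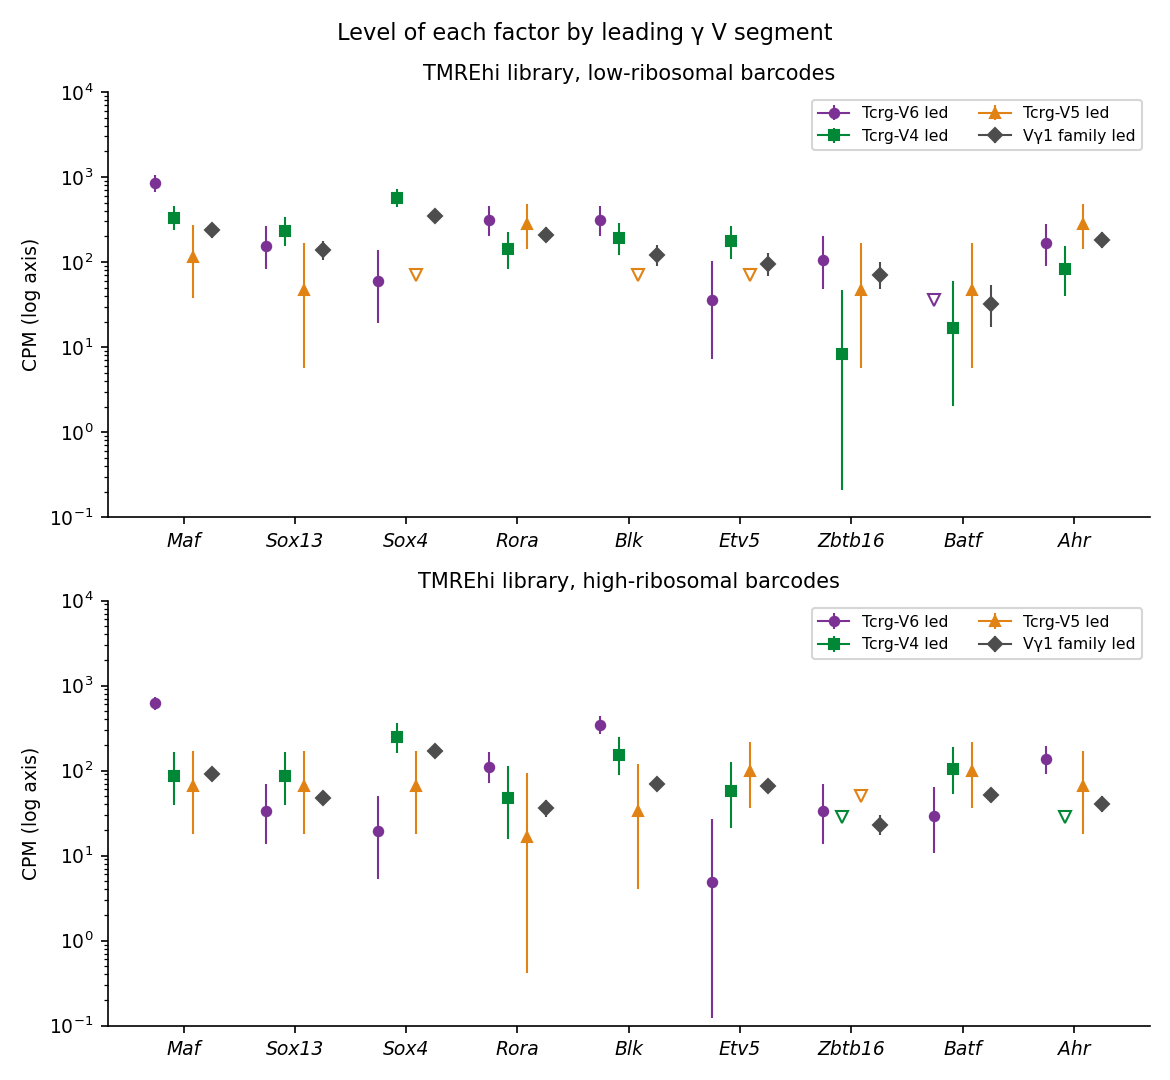
Level of each gene in CPM (log axis) in TMREhi barcodes grouped by leading γ V segment, for the low- and the high-ribosomal class. Points are sums over barcodes with exact Poisson 95% intervals, and open triangles mark 0 UMIs, drawn at the level of 3 counts. Maf is highest in Tcrg-V6-led barcodes of both classes (843 and 615), where Sox4 is at 59.3 and 19.4.

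Maf stood at 843 CPM (658–1063) in Tcrg-V6-led, 332 (238–453) in Tcrg-V4-led, 238 (194–288) in Vγ1-family-led and 116 (37.7–271) in Tcrg-V5-led low-ribosomal barcodes. The Tcrg-V6-led level lay above the others, and the intervals of neighbours below it overlapped. Its ratio of Tcrg-V6-led to Tcrg-V4-led barcodes was 2.53 (1.70–3.83), and 7.13 (3.64–16.0) in the high-ribosomal class, at 615 against 86.2 CPM. Blk followed the same order at 309 (202–452), 191 (121–287) and 120 (89.9–157) CPM, with 0 UMIs in the 30 Tcrg-V5-led barcodes. Its Tcrg-V6-led level exceeded that of Vγ1-family-led barcodes 2.57-fold (1.54–4.19) and that of Tcrg-V4-led barcodes 1.61-fold (0.885–2.96) in the low-ribosomal class, and 4.90-fold (3.66–6.52) and 2.24-fold (1.29–4.13) in the high-ribosomal class. Summed over each group, Maf and Blk thus both stood higher in Tcrg-V6-led than in Tcrg-V4-led and Vγ1-family-led barcodes of both classes. For Blk the low-ribosomal difference from Tcrg-V4-led barcodes did not exceed counting error.

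Sox4 was instead far lower in Tcrg-V6-led than in Tcrg-V4-led barcodes. It stood at 565 CPM (439–716) in Tcrg-V4-led, 351 (298–411) in Vγ1-family-led and 59.3 (19.3–138, 5 UMIs in 2 barcodes) in Tcrg-V6-led low-ribosomal barcodes. The intervals of these 3 levels did not overlap. Tcrg-V5-led barcodes had 0 Sox4 UMIs, with an upper limit of 85.7 CPM that lay within the Tcrg-V6-led interval. The Tcrg-V4-led level exceeded the Tcrg-V6-led level 9.53-fold (3.89–30.3). In the high-ribosomal class Sox4 stood at 249 in Tcrg-V4-led, 170 in Vγ1-family-led and 19.4 in Tcrg-V6-led barcodes, a ratio of 12.9 (4.46–50.7) between Tcrg-V4-led and Tcrg-V6-led barcodes, with 9 of the 26 Tcrg-V4-led UMIs in 1 barcode. Etv5 was ordered in the same way in the low-ribosomal class, at 175 (108–267), 95.1 (68.5–129) and 35.6 (7.34–104) CPM. The intervals of neighbours in this order overlapped, and Tcrg-V5-led barcodes had 0 Etv5 UMIs. The Tcrg-V4-led level of Etv5 exceeded the Tcrg-V6-led level 4.90-fold (1.46–25.7) on 21 and 3 UMIs, and 11.9-fold (1.44–546) on 6 and 1 UMIs in the high-ribosomal class. For Etv5 the deeper Vγ1-family-led high-ribosomal barcodes gave 65.3 CPM on 150 UMIs against 4.84 on 1 UMI in Tcrg-V6-led barcodes, a 13.5-fold difference (2.38–536). The Tcrg-V4-led level of Etv5 in that class was 57.5 CPM on 6 UMIs, not above that of the Vγ1 family.

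Sox13 was detected in all these groups and differed less. It stood at 233 CPM (155–336) in Tcrg-V4-led, 154 (82.1–264) in Tcrg-V6-led, 138 (106–177) in Vγ1-family-led and 46.5 (5.63–168, 2 UMIs) in Tcrg-V5-led low-ribosomal barcodes. The Tcrg-V4-led and Tcrg-V6-led levels could not be told apart (ratio 0.663, 0.315–1.32), nor could they in the high-ribosomal class (86.2 against 33.9 CPM, Tcrg-V6-led over Tcrg-V4-led 0.393, 0.124–1.19). Of the 13 Sox13 UMIs in Tcrg-V6-led low-ribosomal barcodes, 5 came from 1 barcode.

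Rora, Zbtb16 and Ahr each had a higher level with Tcrg-V6 than with Tcrg-V4, on fewer molecules and not beyond counting error in every class. Rora stood at 309 CPM (202–452) in Tcrg-V6-led, 279 (144–487) in Tcrg-V5-led, 211 (170–258) in Vγ1-family-led and 141 (82.3–226) in Tcrg-V4-led low-ribosomal barcodes, and the Tcrg-V6-led level exceeded the Tcrg-V4-led level 2.18-fold (1.14–4.29). Its neighbours in this order overlapped in their intervals. In the high-ribosomal class the Rora ratio was 2.32 on 23 and 5 UMIs, with an interval (0.865–7.83) that included 1. Zbtb16 had 9 UMIs in Tcrg-V6-led and 1 in Tcrg-V4-led barcodes, 107 against 8.31 CPM, a ratio of 12.9 (1.78–563), and 31 UMIs (70.2 CPM) in Vγ1-family-led barcodes. Against the floor of 3 counts it was 3.41 without each gene's top barcode and 3.05 with the classes divided at 10% ribosomal UMIs. In the high-ribosomal class Zbtb16 had 7 and 0 UMIs, a ratio of 1.18 against the floor, and the lower 95% limit of 0.728 lay below 1. Ahr stood at 166 CPM (90.8–279) in Tcrg-V6-led and 83.1 (39.9–153) in Tcrg-V4-led low-ribosomal barcodes, a ratio of 2.00 (0.826–5.03), and had 28 and 0 UMIs in the high-ribosomal class, at least 4.72-fold higher with Tcrg-V6. The highest Ahr level in the low-ribosomal class was that of Tcrg-V5-led barcodes, 279 CPM (144–487), whose interval overlapped that of the Tcrg-V6-led barcodes.

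**Figure D3:**
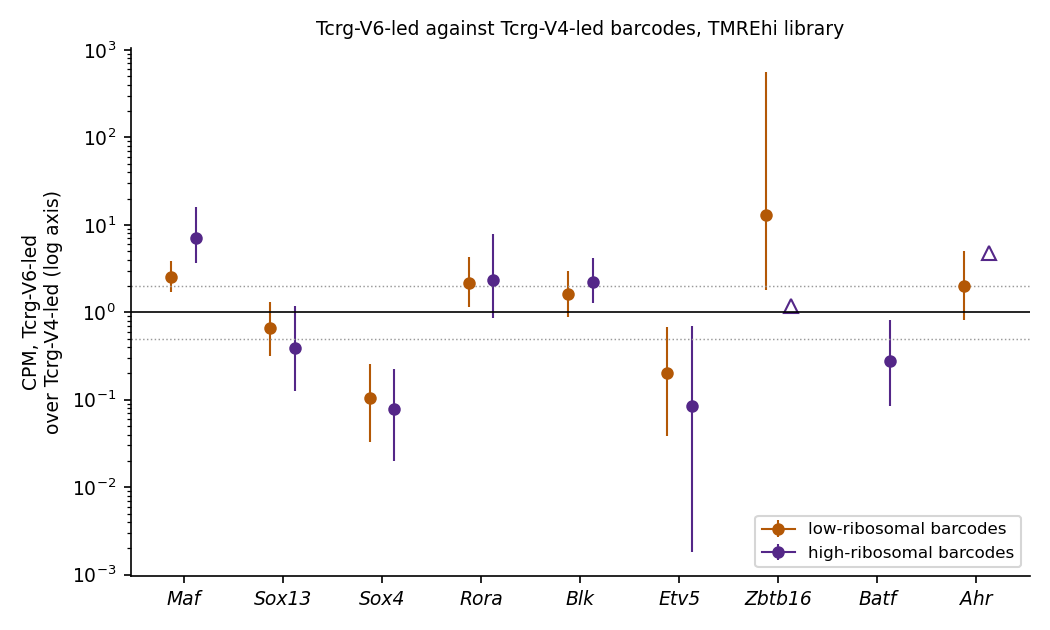
Ratio of CPM in Tcrg-V6-led over Tcrg-V4-led TMREhi barcodes (log axis) for each gene, in the low-ribosomal (orange) and high-ribosomal (purple) class, with exact binomial 95% intervals. Open upward triangles are lower bounds against 3 counts, a gene at or under 3 counts in both groups is left out, and dotted lines mark 2-fold. Maf and Rora lie above 1 and Sox4 and Etv5 below 1 in both classes, but the high-ribosomal interval of Rora (0.865–7.83) includes 1.

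Batf was scarce in low-ribosomal barcodes, with 0 UMIs in Tcrg-V6-led, 2 in Tcrg-V4-led and 14 in Vγ1-family-led barcodes. In the high-ribosomal class it stood at 105 CPM (52.6–189) in Tcrg-V4-led and 29.1 (10.7–63.3) in Tcrg-V6-led barcodes, 3.63-fold higher with Tcrg-V4 (1.23–11.9), but 6 of the 11 Tcrg-V4-led UMIs came from 1 barcode. Against the Vγ1 family, Tcrg-V6-led barcodes had 2 of 8 genes at least 2-fold higher in the low-ribosomal class (Maf and Blk, 11.7% of 8171 genes) and 2 of 8 at least 2-fold lower (Sox4 and Etv5, 13.4%). In the high-ribosomal class 4 of 9 were at least 2-fold higher (Maf, Rora, Blk and Ahr, 14.4% of 7311 genes) and 2 of 9 at least 2-fold lower (Sox4 and Etv5, 15.5%). Sox4 was therefore lower with Tcrg-V6 in all 4 of these comparisons and Maf higher in all 4. Etv5 was lower in 3 of them, and in the low-ribosomal class against the Vγ1 family its ratio of 0.374 had an interval (0.0742–1.17) that included 1. The comparisons share the Tcrg-V6-led barcodes within each class.

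The ribosomal class itself went with large differences in scaled level. In TMREhi barcodes led by a γ V segment, 6 of 9 genes were at least 2-fold higher in the low- than in the high-ribosomal class, a share to be read against 46.8% of all 8424 genes. Rora stood at 215 against 41.5 CPM (ratio 5.19, 4.04–6.69), Ahr at 170 against 47.8 (3.55, 2.75–4.59) and Sox13 at 158 against 47.8 (3.31, 2.55–4.30). The median log2 ratio was 1.30 over the 9 genes and 0.86 over all genes, so much of the difference was also seen over all genes. Batf had its higher level in the high-ribosomal class, 53.0 against 25.7 CPM, a 2.06-fold difference (1.26–3.58), a direction shared at that size by 11.3% of genes.

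Shares of barcodes with a UMI were compared after each barcode was thinned to 1000 UMIs, leaving 326 of 359 TMREhi and 47 of 80 TMRElo low-ribosomal barcodes led by a γ V segment. Maf was detected in 78 of 326 (23.9%, 19.4–28.9) and in 3 of 47 (6.38%, 1.34–17.5), and without thinning in 111 of 359 (30.9%) and 4 of 80. Sox13 was detected in 49 of 326 (15.0%, 11.3–19.4) and 0 of 47, and Blk in 44 of 326 (13.5%, 9.98–17.7) and 0 of 47. In TMRElo a floor of 3 barcodes, which is not a confidence limit, would be a share of 6.38%. Without thinning Sox13 was in 19.2% and 2.50% of barcodes and Blk in 20.6% and 0%. Rora was detected in 60 of 326 (18.4%, 14.3–23.0) and 2 of 47 (4.26%, 0.520–14.5). These genes were thus found in a minority of TMREhi barcodes and in few or none of the TMRElo barcodes. Ahr was detected in 57 of 326 (17.5%, 13.5–22.1) and 11 of 47 (23.4%, 12.3–38.0), and Sox4 in 76 of 326 (23.3%, 18.8–28.3) and 6 of 47 (12.8%, 4.83–25.7), with overlapping intervals for each gene.

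As an approximate background for free RNA, 159 low-ribosomal TMREhi barcodes with Rag1 UMIs and no γ V segment were used, of which 85 reached 1000 UMIs (median before thinning over the 159, 1085 UMIs, against 1750 for barcodes led by a γ V segment). They had at least 500 genes and may express the 9 genes themselves, so their shares do not measure free RNA alone. Rag1 is needed to rearrange antigen receptor genes. Maf was detected in 3 of these 85 (3.53%, 0.734–9.97), Sox13, Rora, Etv5 and Ahr in 1 each (1.18%, 0.0298–6.38), and Blk, Zbtb16 and Batf in 0. Sox4 was detected in 30 of 85 (35.3%, 25.2–46.4) and stood at 487 CPM (404–582) there, so for Sox4 these barcodes are not a background. Sox4 is known to be expressed in early thymocytes. TMRElo had 0 such barcodes. By leading segment, the thinned share for Maf was 54.3% (39.0–69.1) in Tcrg-V6-led, 17.5% (8.75–29.9) in Tcrg-V4-led and 19.8% (14.4–26.1) in Vγ1-family-led barcodes. For Sox4 it was 4.35% (0.531–14.8), 36.8% (24.4–50.7) and 27.6% (21.4–34.5). The thinned Maf share in TMRElo (6.38%) lay within the interval of the background share. That background came from TMREhi barcodes only. Whether Maf in TMRElo exceeded the free RNA of its own library therefore cannot be decided here.

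At 1000 UMIs a TMREhi low-ribosomal barcode led by a γ V segment held on average 1.28 of the 9 genes and a TMRElo barcode 0.596. In TMREhi 100 of the 326 barcodes (30.7%) held none and 55 (16.9%, 13.0–21.4) held 3 or more, while in TMRElo 23 of the 47 (48.9%) held none and 2 (4.26%, 0.520–14.5) held 3 or more. The TMRElo barcodes were shallower before thinning, and the part of depth was not tested. The mean was 1.61 in Tcrg-V6-led, 1.37 in Tcrg-V4-led, 1.25 in Vγ1-family-led and 0.808 in Tcrg-V5-led TMREhi barcodes. Of 46 Tcrg-V6-led barcodes 10 held 3 or more (21.7%, 10.9–36.4), and of 57 Tcrg-V4-led barcodes 12 did (21.1%, 11.4–33.9). These shares overlapped in their intervals, although Maf and Sox4 levels differed between the 2 sets of barcodes.

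Co-detection among the genes was described as the number of barcodes with both of a pair, over the number given by the product of their shares. The barcodes share a library, and the ratios mix leading segments. In the 326 thinned TMREhi barcodes, 25 of the 36 pairs had a product of at least 3 barcodes. Of these, 16 lay above 1 and 9 below, with a median of 1.36. At 500 UMIs 9 pairs had such a product, 4 above 1 and 5 below, with a median of 0.935. Maf and Blk were found together in 27 barcodes where the product gave 10.5 (ratio 2.56), and Blk was present in 34.6% (24.2–46.2) of barcodes with Maf against 6.85% (4.04–10.7) without. Sox13 and Etv5 were found together in 12 where the product gave 3.76 (3.19), and Sox4 and Etv5 in 14 where it gave 5.83 (2.40). Maf and Sox13, whose products are both tied to IL-17-producing cells, were found together in 18 where the product gave 11.7 (1.54), but at 500 UMIs in 2 where it gave 3.22 (0.622). Maf and Rora were found together in 25 where the product gave 14.4 (1.74) at 1000 UMIs. At that depth Maf with Sox13 lay near the median pair.

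**Figure D4:**
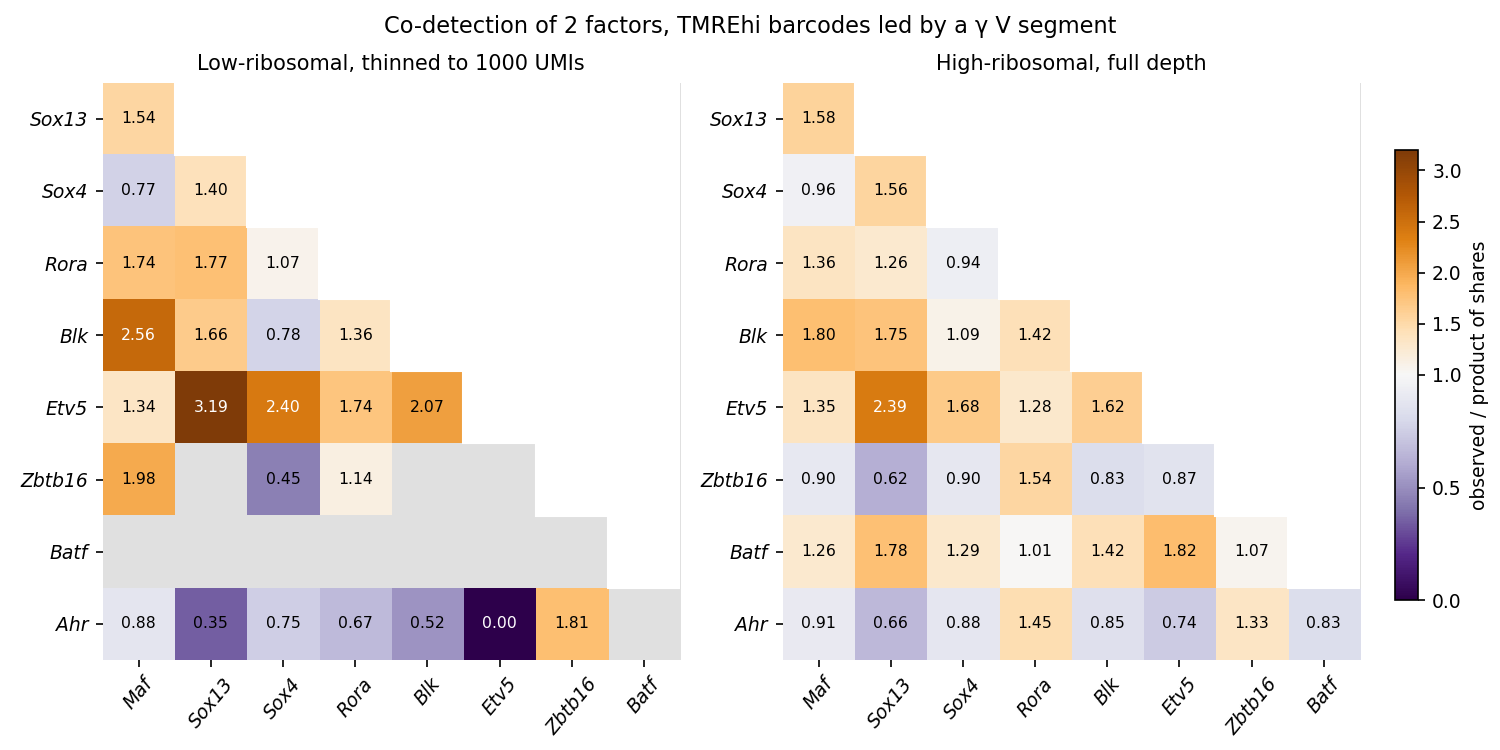
Co-detection of each pair of genes in TMREhi barcodes led by a γ V segment, as observed barcodes with both over the product of the shares (colour and number, 1 for no association), in low-ribosomal barcodes thinned to 1000 UMIs and in high-ribosomal barcodes at full depth. Grey cells have a product under 3 barcodes. Maf with Blk (2.56 and 1.80) and Sox13 with Etv5 (3.19 and 2.39) stand above 1 in both, and Sox13 with Ahr (0.35 and 0.66) below.

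Other pairs lay below the product. Ahr and Etv5 were together in 0 barcodes where the product gave 4.37, Ahr and Sox13 in 3 where it gave 8.57 (0.350), and Ahr and Blk in 4 where it gave 7.69 (0.520). Maf and Sox4 were together in 14 where the product gave 18.2 (0.770), and Sox4 and Zbtb16 in 2 where it gave 4.43 (0.452). Of the 7 pairs of Ahr with a product of at least 3 barcodes, the pair with Zbtb16 lay above 1 (6 barcodes where the product gave 3.32, ratio 1.81) and the other 6 below.

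In the 257 high-ribosomal TMREhi barcodes led by a γ V segment, at full depth, these associations were again above 1. Maf and Blk were together in 84 barcodes where the product gave 46.8 (1.80), Sox13 and Etv5 in 43 where it gave 18.0 (2.39) and Sox4 and Etv5 in 63 where it gave 37.6 (1.68). Etv5 was present in 45.0% (36.6–53.6) of barcodes with Sox4 and in 5.13% (1.90–10.8) of those without. These barcodes differ in depth, and 23 of 36 pairs lay above 1 with a median of 1.27. Below 1 were Sox13 with Zbtb16 (7 barcodes, product 11.2, ratio 0.624) and Sox13 with Ahr (14, product 21.1, 0.663). Within the 198 high-ribosomal barcodes led by the Vγ1 family alone, Maf and Blk were together in 54 where the product gave 27.1 (1.99), Sox13 and Etv5 in 40 against 17.8 (2.25) and Sox4 and Etv5 in 60 against 41.4 (1.45). In those barcodes, which differ in depth, 24 of 36 pairs lay above 1 with a median of 1.29, so Sox4 with Etv5 was near the median pair. In the 192 low-ribosomal Vγ1-family-led barcodes thinned to 1000 UMIs, 8 of 16 pairs with a product of at least 3 lay above 1 (median 1.05). There Maf and Blk were together in 12 where the product gave 3.76 (3.19) and Sox4 and Etv5 in 7 where it gave 4.14 (1.69), while Sox13 and Etv5, together in 8, had a product of 1.95. In the 46 Tcrg-V6-led low-ribosomal barcodes thinned to 1000 UMIs, Maf and Blk were together in 12 where the product gave 7.61 (1.58). In the 54 thinned to 500 UMIs they were together in 3 where it gave 3.17 (0.947).

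Genes that mark IL-17 subsets differed in the factors they were detected with when barcodes of all leading segments were pooled. In the thinned low-ribosomal TMREhi barcodes Cd163l1, which encodes the scavenger receptor SCART1 of Vγ6 cells, was present in 59.0% (47.3–70.0) of barcodes with Maf and 15.3% (11.1–20.4) without, and in 59.1% (43.2–73.7) with Blk and 20.6% (16.0–25.8) without. It was present in 10.5% (4.66–19.7) of barcodes with Sox4 and 30.4% (24.8–36.5) without. The related receptor SCART2, encoded by 5830411N06Rik and linked to Vγ4 cells, showed the reverse, in 55.3% (43.4–66.7) of barcodes with Sox4 and 25.2% (19.9–31.1) without, in 55.1% (40.2–69.3) with Sox13 and 28.2% (22.9–33.9) without, and in 68.0% (46.5–85.1) with Etv5 and 29.2% (24.2–34.7) without. With Maf it was present in 34.6% (24.2–46.2) and without Maf in 31.5% (25.7–37.6), a difference within counting error. Within the 57 Tcrg-V4-led barcodes 5830411N06Rik was present in 66.7% (43.0–85.4) with Sox4 and 47.2% (30.4–64.5) without. With Sox13 it was present there in 80.0% (51.9–95.7) and without Sox13 in 45.2% (29.8–61.3). Both pairs of intervals overlapped. The partners Il23r, the IL-23 receptor chain, and Trdv4, a δ chain V segment paired with Vγ6 in fetal cells, were chosen after their values were seen. Il23r was present in 28.2% (18.6–39.5) of barcodes with Maf and 4.03% (1.95–7.29) without, and in 1.32% (0.0333–7.11) with Sox4 and 12.4% (8.58–17.1) without. Trdv4 was present in 38.5% (27.7–50.2) of barcodes with Maf and 16.5% (12.1–21.8) without, and in 3.95% (0.822–11.1) with Sox4 and 27.2% (21.8–33.2) without.

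The genes most like a factor across barcodes were ranked by Pearson correlation of log1p counts per 10000 over the 292 high-ribosomal TMREhi barcodes, among 5129 genes with at least 20 CPM. These barcodes share a library and differ in depth, and the values are descriptive. For Maf the 5 highest were Ckb (r = 0.603), Tmem176b (0.578), S100a4 (0.577), Cd163l1 (0.562) and Ccr2 (0.546). Blk shared 3 of them, with Actn2 (0.468), Ckb (0.460), Ccr2 (0.456), Serpinb1a (0.441) and S100a4 (0.435). Sox13 shared 0 of them, with Crip1 (0.453), Cpa3 (0.383), the segment Tcrg-V4 (0.370), Tmem121 (0.362) and Hnrnpll (0.353). Among the factors themselves r was 0.538 for Maf and Blk, 0.452 for Sox4 and Etv5, 0.451 for Sox13 and Etv5, 0.295 for Maf and Sox13 and -0.01 for Maf and Sox4. Ahr had an r of -0.24 with Sox4 and of -0.20 with Etv5, values too weak in sparse counts to be read as a relation.

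A wider list of 28 other genes of IL-17-producing γδ cells was compared in the same sets. Between the fractions, among low-ribosomal barcodes led by a γ V segment, 17 of 24 genes with a ratio were higher in TMREhi and 7 lower. Of these, 10 were at least 2-fold higher and 2 at least 2-fold lower (13.6% and 15.2% of all genes). With 1 CPM added to every level their median log2 ratio was 0.76, against -0.08 over all genes. It was 0.54 with nothing added and genes at 0 set at their bound. The shift toward TMREhi did not hold in the other sets: 10 were higher and 11 lower of 21 in retained barcodes, 9 and 9 of 18 in high-ribosomal barcodes led by a γ V segment, 12 and 8 of 20 in Vγ1-family-led and 4 and 8 of 12 in Tcrg-V4-led low-ribosomal barcodes. Of the 8 with most UMIs in low-ribosomal barcodes led by a γ V segment, the chemokine receptor gene Ccr2 had 160 UMIs in TMREhi and 1 in TMRElo (228 against 10.8 CPM, ratio 21.1, 3.73–837) and the transcription factor gene Runx1 had 275 and 8 (392 against 86.7, 4.53, 2.26–10.6). Cxcr6 (233 against 97.5 CPM, 2.38, 1.23–5.31), Cd163l1 (932 against 434, 2.15, 1.56–3.04) and Igf1r (313 against 152, 2.06, 1.20–3.83) were also higher in TMREhi. The IL-7 receptor gene Il7r (679 against 564, 1.21, 0.904–1.64) and 5830411N06Rik (836 against 759, 1.10, 0.859–1.43) did not differ beyond counting error, and the lymphotoxin gene Ltb was 1.58-fold higher in TMRElo (1.18–2.08). A list of 13 genes linked to IFN-γ-producing γδ cells held Tbx21, Eomes, Id3, Id2, Egr3, Stat4, Runx3, Klf2, Tcf7, Lef1, Bcl11b and the receptor genes Il2rb and Cd27. Of 11 with a ratio, 3 were higher in TMREhi and 8 lower. Of these, 0 were at least 2-fold higher and 4 at least 2-fold lower, against 13.6% and 15.2% of all genes. The median log2 ratio of the list was -0.61.

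Between leading segments within low-ribosomal TMREhi barcodes, 19 of 25 genes of the IL-17 list were higher in Tcrg-V6-led than in Tcrg-V4-led barcodes and 6 lower. Of these, 18 were at least 2-fold higher and 2 at least 2-fold lower (13.2% and 18.0% of all genes). With 1 CPM added to every level their median log2 ratio was 2.72, against -0.07 over all genes. It was 2.61 with nothing added and genes at 0 at their bound. In the high-ribosomal class 23 of 27 were higher and 4 lower. Cd163l1 stood at 3726 against 499 CPM (7.47, 5.65–10.0), Cxcr6 at 937 against 141 (6.64, 3.89–12.0), Ccr2 at 759 against 125 (6.09, 3.43–11.5), Ltb at 1127 against 299 (3.77, 2.54–5.69) and Il7r at 1709 against 499 (3.43, 2.52–4.71). Igf1r (320 against 416) and Runx1 (320 against 382) did not differ beyond counting error. The gene 5830411N06Rik was 9.21-fold higher in Tcrg-V4-led barcodes (5.25–17.7), at 1421 against 154 CPM. Of the IFN-γ list 3 of 10 were higher and 7 lower in Tcrg-V6-led barcodes, 2 at least 2-fold higher and 5 at least 2-fold lower, against the same shares of all genes. Most of the IL-17 list was thus higher with Tcrg-V6, as Maf was, while Sox4, Etv5 and 5830411N06Rik were higher with Tcrg-V4.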

How the data were processed

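The authors deposited raw UMI counts per gene and barcode for 2 libraries, 1202 TMREhi and 196 TMRElo barcodes (4350485 and 245048 UMIs). They came from Cell Ranger 3.0.2 per the file headers, and from Cell Ranger 3.0 on mm10 per the submitters' processing notes. The sources used here do not give the annotation release or cell-calling settings. Gene names in the barcode and feature files were used as deposited.

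UMIs were summed per gene over groups of barcodes and scaled to UMIs per 1000000 UMIs (CPM). Ratios have exact conditional binomial intervals, levels exact Poisson intervals and shares exact binomial (Clopper-Pearson) intervals, at 95%. With 1 library per group no test was made. The level of 3 counts was 1.03 CPM in retained TMREhi and 28.5 in retained TMRElo barcodes, and 4.28 and 32.5 in low-ribosomal barcodes led by a γ V segment. A gene at 0 was set at that floor for a lower bound. A gene entered a comparison when its mean reached 10 CPM, and genes at or under the floor in both groups got no ratio. The log2 medians used a pseudocount of 1 UMI CPM. Ribosomal protein genes numbered 94 and mitochondrial genes 13. A barcode with a tie for its leading γ V segment was left out of the led groups. Thinning drew UMIs without replacement with seed 1. Doublets were called with Scrublet in 2 of 1025 TMREhi and 24 of 133 TMRElo barcodes with at least 500 genes and kept, with their removal as an alternative.

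The 9 genes and the gene lists were chosen with earlier results of these data known. All 9 were named, with the 8 genes of the IL-17 list that had most UMIs in low-ribosomal barcodes led by a γ V segment, and the 5 genes most like Maf, Sox13 and Blk. Ratios and intervals were tested on simulated data. Alternatives covered the barcode filters, scaling, class limit, leading-segment rule, thinning depth and doublets. The tools were scanpy 1.11.5 (Scrublet), scipy 1.17.1, matplotlib 3.10.9, pandas 2.3.3 and numpy 2.4.6 under Python 3.11.15.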

Additional observations from a re-analysis of the deposited data

Results flagged for a closer look

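Batf and Ahr had ratios of TMREhi to TMRElo on opposite sides of 1 in the low- and high-ribosomal classes of barcodes led by a γ V segment. For Batf the ratio was 0.592 (18 and 4 UMIs) in the low-ribosomal and 1.74 (143 and 2 UMIs) in the high-ribosomal class. For Ahr it was 0.580 (119 and 27 UMIs) and 1.05 (129 and 3 UMIs). The difference between the classes was not tested, and the high-ribosomal TMRElo values came from 11 barcodes.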

How the results depend on the processing

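The number of the 9 genes at least 2-fold higher in TMREhi in retained barcodes was 6, and moved to 2 of 7 with a ratio under the stricter filter of at least 1000 genes and at most 5% mitochondrial UMIs, to 3 without called doublets and to 3 without the 5 deepest barcodes of each library. It was 4 with all deposited barcodes, with no limit on mitochondrial UMIs, without each gene's top barcode and with genes at 0 left out. Co-detection of Maf and Sox13, 1.54 in barcodes thinned to 1000 UMIs, was 0.622 at 500 UMIs, where 2 barcodes held both, and 1.78 without thinning. The cause was not tested. The Zbtb16 ratio of Tcrg-V6-led to Tcrg-V4-led barcodes, 12.9, ranged from 1.18 (high-ribosomal class) to 12.9 over its alternatives. The count in low-ribosomal barcodes led by a γ V segment stayed between 4 and 6 under 8 alternatives, of which the removal of doublets and the counting of ties were chosen after seeing the data, as was the removal of doublets for the comparison of leading segments and for co-detection. The count for Tcrg-V6-led over Tcrg-V4-led barcodes stayed between 2 and 4. Over the alternatives run, the ratio of TMREhi to TMRElo in low-ribosomal barcodes ranged from 5.94 to 9.38 for Maf, from 5.92 to 13.6 for Sox13 and from 0.525 to 0.635 for Ahr, and that of Tcrg-V6-led to Tcrg-V4-led barcodes from 1.90 to 7.13 for Maf and from 0.0476 to 0.140 for Sox4. In retained barcodes Rora ranged from 0.358 to 1.20. The median log2 ratio over the 9 genes in low-ribosomal barcodes was 1.35 with a pseudocount of 5 and 2.07 (7 genes) with a minimum mean of 50 CPM. Depth limits the TMRElo values: a gene below about 28.5 CPM in retained barcodes was at or under 3 counts. No paired analysis was possible because each fraction gave 1 library.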
